A study of Mus musculus with 9 samples.

Results

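The nuclear factor I family circRNAs are the circular RNAs of Nfia, Nfib, Nfic and Nfix that were counted in sorted cells of the embryonic mouse cortex, namely progenitors that proliferate (PP), progenitors that are differentiating (DP) and newborn neurons (N). Members were taken as every entry of the count table that lies on the strand of one of these genes and within it in GENCODE vM1, and for Nfix as every minus-strand entry within or overlapping the longest one. This gave 18 of the 5281 circRNAs of the table, 6 of Nfia, 6 of Nfib, 1 of Nfic and 5 of Nfix. The cells came from the lateral cortex of E14.5 embryos of strain C57BL/6, of a line that carries both the Btg2-RFP and the Tubb3-GFP reporter. The study's methods call the pregnant mice double heterozygous for the reporters and do not state the alleles of each embryo. PP were sorted as RFP- and GFP-, DP as RFP+ and GFP-, and N as GFP+, in 3 biological replicates each. The sort rests on these reporters alone. Btg2 is switched on in progenitors that are about to generate neurons and Tubb3 in neurons, and GFP- cells of other kinds can remain in PP. Total RNA was digested with RNase R, an exonuclease that degrades linear RNA, so that populations can be checked here only through circRNAs.

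Nuclear factor I proteins bind DNA as dimers and can activate or repress transcription. The amino-terminal part that binds DNA is very similar in the 4 proteins, and the rest of each protein differs more. In the developing cortex Nfia, Nfib and Nfix are made by radial glia and by postmitotic neurons and are needed for progenitors to leave self-renewal and later form glia, whereas Nfic is best known from the growth of tooth roots. A circRNA forms when a splice donor is joined to an acceptor upstream of it, which leaves a backsplice junction that the linear mRNA lacks.

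All 4 genes had a circRNA of their exon 2 alone, which was singled out for description after its values had been seen. These were CiCo_mm9_circ_004720 of Nfia, CiCo_mm9_circ_004675 of Nfib, CiCo_mm9_circ_000682 of Nfic and CiCo_mm9_circ_006346 of Nfix. The exon was coding and 532 bases long in each gene, and the table counted 533 because its start lies 1 base before the exon. It was flanked by an AG acceptor and a GT donor, and the intron downstream was longer than the one upstream in every gene, with 172760 against 5087 bases in Nfia, 114576 against 5961 in Nfib, 10584 against 6277 in Nfic and 43816 against 1038 in Nfix. Aligned without gaps, the exons were identical at between 75.8% of bases (Nfia and Nfic) and 82.0% (Nfic and Nfix), and 351 of 532 positions were alike in all 4. Mismatches fell mainly on the third base of codons, where 42.4 to 60.5% of bases matched between pairs of genes. For the first base 87.1 to 91.6% matched, and for the second 94.4 to 98.3%. The longest stretch shared without a mismatch was 32 bases (Nfic and Nfix) and was between 17 and 21 bases for the other pairs, shorter than the 150-base reads. How the aligner placed reads with mismatches was not tested. The first 120 bases of the exon, the stretch of that length with most positions alike, are given from mm9 to show how close the exons are, with capitals at the 32 positions that are not alike in all 4 genes.
Nfia chr4:97449773-97449892, plus strand: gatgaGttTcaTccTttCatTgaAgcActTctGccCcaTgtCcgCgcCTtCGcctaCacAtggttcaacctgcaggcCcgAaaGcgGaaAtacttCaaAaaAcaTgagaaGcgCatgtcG
Nfib chr4:82144554-82144673, minus strand: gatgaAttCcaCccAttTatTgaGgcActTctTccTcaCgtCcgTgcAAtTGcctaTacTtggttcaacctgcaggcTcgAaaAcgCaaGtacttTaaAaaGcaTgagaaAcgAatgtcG
Nfic chr10:80883424-80883543, minus strand: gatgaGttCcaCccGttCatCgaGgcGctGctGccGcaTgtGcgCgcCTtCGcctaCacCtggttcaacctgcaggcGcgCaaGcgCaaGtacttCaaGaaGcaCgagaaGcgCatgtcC
Nfix chr8:87296095-87296214, minus strand: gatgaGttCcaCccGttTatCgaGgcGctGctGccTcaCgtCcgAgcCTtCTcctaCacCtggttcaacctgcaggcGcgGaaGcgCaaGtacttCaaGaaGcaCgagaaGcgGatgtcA

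The backsplice junctions of these circles are shown because they are the part of each molecule that its linear mRNA lacks. The last 40 bases of the exon are in lower case and the first 40 bases, to which they are joined, in capitals.
Nfia exon 2 joined to exon 2: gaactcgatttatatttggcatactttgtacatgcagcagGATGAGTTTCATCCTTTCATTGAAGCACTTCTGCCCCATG
Nfib exon 2 joined to exon 2: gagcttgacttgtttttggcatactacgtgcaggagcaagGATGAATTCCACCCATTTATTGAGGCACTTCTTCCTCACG
Nfic exon 2 joined to exon 2: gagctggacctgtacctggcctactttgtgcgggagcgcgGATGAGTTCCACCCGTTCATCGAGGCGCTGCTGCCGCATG
Nfix exon 2 joined to exon 2: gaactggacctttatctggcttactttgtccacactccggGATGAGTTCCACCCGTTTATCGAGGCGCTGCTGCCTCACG
Each circle began its second round with the letters GATGA. Read in the frame of the mRNA, which enters exon 2 at the first base of a codon in all 4 genes, the circles had no stop codon within the exon and met TGA just past the junction, at base 535 counted from the first base of the exon. With 532 bases, 1 more than a whole number of codons, a second round is in another frame.

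The other members joined later exons. In Nfia they were CiCo_mm9_circ_004724 (exons 3 to 7), CiCo_mm9_circ_004725 (exons 5 to 6), CiCo_mm9_circ_004726 (exons 7 to 9), CiCo_mm9_circ_004727 (exons 8 to 10) and CiCo_mm9_circ_004721, a stretch of 350 bases within an intron that ends at no annotated exon. In Nfib, CiCo_mm9_circ_004671 (exons 5 to 6), CiCo_mm9_circ_004672 (exons 4 to 6) and CiCo_mm9_circ_004673 (exons 3 to 6) shared their donor, and CiCo_mm9_circ_004669 (exons 9 to 11) and CiCo_mm9_circ_004670 (exons 9 to 10) shared their acceptor. In Nfix, CiCo_mm9_circ_006342 (exons 3 to 7) and CiCo_mm9_circ_006343 (exons 2 to 7) shared their donor with CiCo_mm9_circ_006344, which spans 78705 bases of chromosome 8 (87245541 to 87324245, minus strand) from the donor of exon 7 to just past the annotated start of the gene, and CiCo_mm9_circ_006341 covered exons 7 to 9. The Nfix numbers come from different transcripts, since the exon at which CiCo_mm9_circ_006341 starts is exon 7 of one transcript and is left out of the other, by which the remaining entries are numbered. The exon called 7 in those entries is thus the middle exon of CiCo_mm9_circ_006341, and its first exon lies in what is counted below as intron of exons 3 to 7. The 3 junctions of Nfib are printed to show 1 donor (lower case) joined to 3 acceptors (capitals), and those of Nfia exons 5 to 6 and Nfix exons 3 to 7 because the calls of these entries held with each library left out.
Nfia exon 6 joined to exon 5: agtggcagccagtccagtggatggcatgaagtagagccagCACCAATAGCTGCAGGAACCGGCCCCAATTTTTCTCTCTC
Nfib exon 6 joined to exon 5: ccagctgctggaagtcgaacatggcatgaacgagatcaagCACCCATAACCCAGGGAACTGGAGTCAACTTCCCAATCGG
Nfib exon 6 joined to exon 4: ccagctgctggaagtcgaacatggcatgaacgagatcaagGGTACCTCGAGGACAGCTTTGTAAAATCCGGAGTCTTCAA
Nfib exon 6 joined to exon 3: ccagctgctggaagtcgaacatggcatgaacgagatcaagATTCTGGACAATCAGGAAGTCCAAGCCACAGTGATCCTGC
Nfix exon 7 joined to exon 3: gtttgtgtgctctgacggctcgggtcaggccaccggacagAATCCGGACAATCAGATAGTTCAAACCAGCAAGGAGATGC
Exons 5 to 6, numbered in the transcript of each entry, were joined in both Nfia and Nfib. Exons 3 to 7 and exons 7 to 9 were so joined in both Nfia and Nfix. Equal numbers do not show equivalent exons, since the Nfix transcript of exons 3 to 7 leaves out an exon. Which exons correspond between the genes was not tested. Genes with at least 6 circRNAs, as Nfia and Nfib, were 3.66% of the 2759 genes with a circRNA in the table, and 5.84% had at least 5, as Nfix. Per 100 kb of gene, Nfix had 4.98 circRNAs, Nfic 2.87, Nfib 1.44 and Nfia 1.40.

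**Figure D1:**
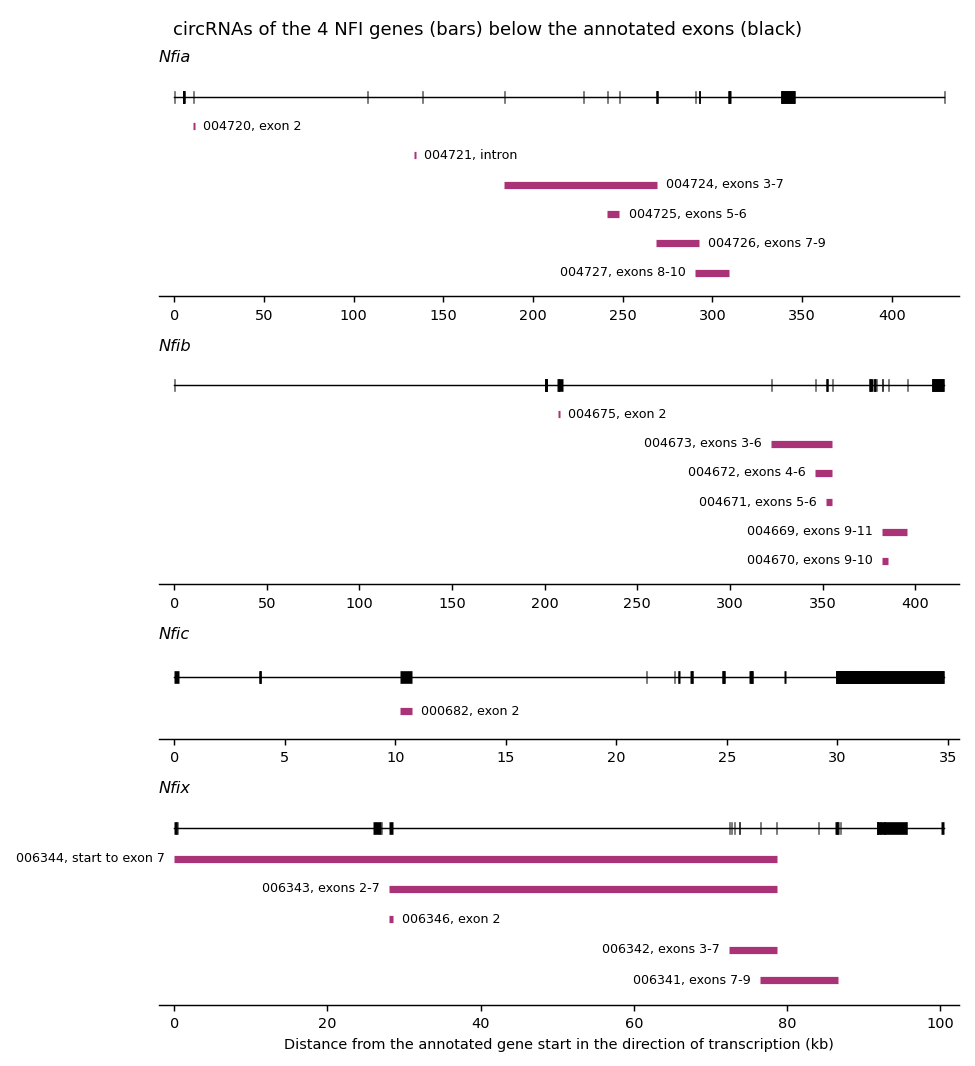
Position of the 18 member circRNAs (bars, with the last 6 digits of their name) below the annotated exons (black) of each gene, as distance in kb from the annotated gene start in the direction of transcription. An exon 2 circle is seen in each gene, near the start in Nfia and midway along Nfib, and the entries of Nfib exons 3 to 6 and of Nfix overlap one another.

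What was counted differed between members. For Nfia (other than the intronic entry) and for Nfib exons 2 to 6 the counted length held exons only. For Nfix exons 7 to 9 and 3 to 7 and for Nfib exons 9 to 10 it also held the introns between them. These made up 96.1, 91.0 and 92.3% of the counted bases. Nfib exons 9 to 11 (89.8% intron) and Nfix exons 2 to 7 (83.9% intron) held some of the introns between their exons. For the 78.7-kb Nfix entry (96.7% intron) the counted length was the whole span. The study found no intron in the circRNAs that it cloned. It proposes that reads on introns may come from lariats, and it left introns out of its later analyses. Where the intronic reads of these entries came from was not tested here. Counts are of all reads on these features, not of reads across the junction, and a read on nested entries was counted in each of them. In every library the counts of Nfib exons 5 to 6 were at or below those of exons 4 to 6, and these at or below those of exons 3 to 6, and between 71.9 and 88.2% of the reads of exons 3 to 6 were also in exons 5 to 6. The counts of Nfix exon 2 and of exons 3 to 7 added up to those of exons 2 to 7 but for 7 to 104 reads per library, the number that touched both. The members of a gene are therefore not independent measurements, and a call shared by nested entries is in large part 1 observation.

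Levels are given as CPM, the usual depth-scaled count, with library sizes after TMM scaling, and as RPKM, which is CPM per kilobase of counted length and is the scale on which genes are compared. In RPKM, averaged over the 9 libraries, the exon 2 circles of Nfix (164.0) and Nfib (88.6) were above 99.5 and 99.2% of all circRNAs of the table. The exon 2 circle of Nfia followed with 46.6 RPKM, above 97.7%, and that of Nfic had 8.67 RPKM, above 62.1%. The remaining exonic members of Nfia and Nfib had between 34.7 and 75.6 RPKM. Where introns were counted the RPKM was lower. For Nfix it was 4.42 (78.7-kb entry), 8.94 (exons 7 to 9), 15.97 (exons 3 to 7) and 26.0 (exons 2 to 7). For Nfib it was 4.95 (exons 9 to 10) and 5.50 (exons 9 to 11). In CPM, which grows with length, the 78.7-kb entry led with 348.1 and was above 99.6% of circRNAs. The intronic Nfia entry had between 0 and 19 counts per library, 49 in all, and was the only member that did not have enough counts to be tested. A floor of 3 counts stood for 0.340 CPM in DP replicate 1, where it was lowest, to 1.39 CPM in PP replicate 3, and such floors cover counting error only.

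Total counts were between 2962787 and 8015311 per library. Of these, 94.7 to 98.2% fell on 27 entries of chromosomes 5 and 17 that hold no member, which left between 83572 and 287983 counts for all other circRNAs, with the fewest in PP replicate 3 and N replicate 1. Members together had 1870 counts in PP replicate 3 and 4104 in N replicate 1, and between 2793 and 9319 in the others. As these 2 libraries also stood apart from their replicates for several members, results are given with and without them. The choice thus rests partly on the members' own values. Results without these libraries, with their p-values by edgeR, are therefore a description and not separate support. Of 15 tested circRNAs of neuronal genes, among them Myt1l, Dcc and Bcl11b, 15 were higher in N than in PP, and of 18 circRNAs of genes of proliferative progenitors, among them Notch1, Notch2, Gli3 and Prom1, 16 were lower and 0 higher. Only 3 circRNAs of 2 genes, Mfng and Tox, represented differentiative progenitors. Of these 1 was higher in DP than in PP and 2 were lower in N than in DP, and the circRNA of Tox had a mean of 3.27 CPM in PP and 0.523 CPM in DP, a log2 FC of -2.40 in the other direction that did not pass (SE 0.66, adjusted p = 0.0845 by edgeR). The 24 marker genes of interneurons, endothelial, microglial, mesenchymal and oligodendrocyte precursor cells had no circRNA in the table, so that such cells could not be looked for here. In bulk samples such as these, fewer cells that make a circRNA and less of it per cell cannot be told apart.

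From PP to N, the step over the whole lineage, 7 members of Nfia, Nfib and Nfix rose and the single circRNA of Nfic fell. These were the Nfia circles of exons 5 to 6 and 3 to 7, the nested Nfib circles that end at exon 6, the Nfix entries of exons 3 to 7 and 7 to 9, and in the other direction the exon 2 circle of Nfic. A member was called at an adjusted p under 0.05 by edgeR, with the quasi-likelihood test over all 9 libraries and 4406 circRNAs. The 7 rises were 41.2% of the 17 members tested, beside 13.6% of all circRNAs tested that were higher in N and 14.4% that were lower. The median log2 FC was 0.85 over members and -0.10 over all circRNAs, and 16 of 17 members had a value above 0. The rises rest on fewer than 7 observations, since 3 are nested entries of Nfib, the Nfia circle of exons 5 to 6 lies within that of exons 3 to 7, and the 2 Nfix entries overlap. They fell to 2 or 3 when PP replicate 1, PP replicate 2, any DP library, N replicate 2 or N replicate 3 was left out, whereas without PP replicate 3 they were 6 and without N replicate 1 they were 7. The share of all circRNAs called in each of these fits is not given here. When counts were scaled to their totals, which the 27 entries dominate, the median of all circRNAs moved to -0.37, 14 of 17 members were above 0, and none rose at an adjusted p under 0.05.

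**Figure D2:**
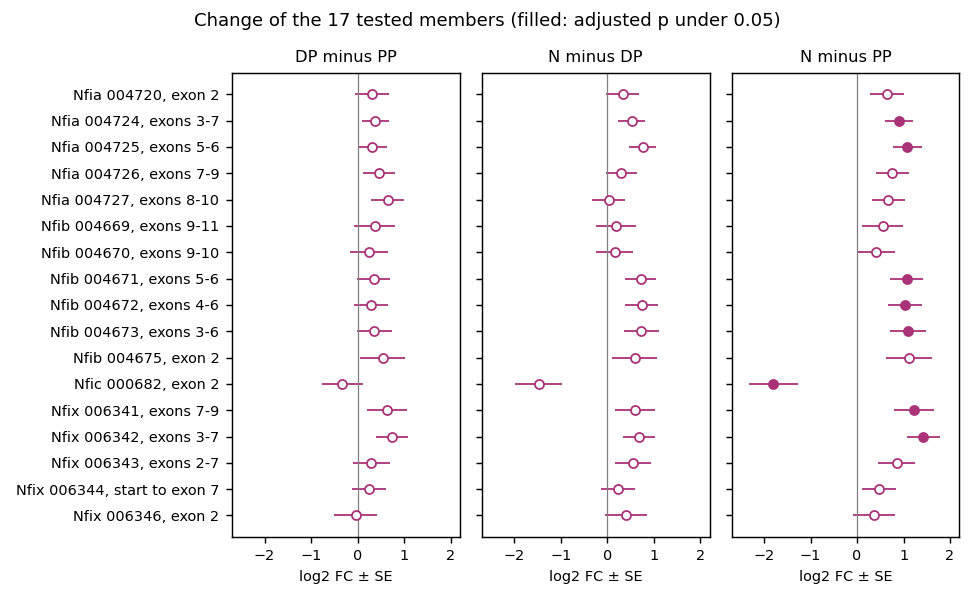
Log2 FC with its standard error (SE) for the 17 tested members in the 3 comparisons, from edgeR's fit over all 9 libraries, with filled points at an adjusted p under 0.05. Filled points are found only between N and PP, 7 to the right of 0 and that of Nfic to the left.

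Of the Nfix members, the entry of exons 3 to 7 rose most in counts, with 91.0% of its counted bases in introns. Its PP libraries had 53.5, 56.3 and 60.0 CPM, its DP libraries 80.5, 98.1 and 104.1 CPM, and its N libraries 236.2, 93.5 and 126.9 CPM. All DP and N libraries lay above all PP libraries, and N replicate 1 was the highest by far. From PP to N the log2 FC was 1.42 (standard error, SE, of 0.35, adjusted p = 0.00747 by edgeR), a 2.68-fold rise, and no left-out library ended this call, which was lost with total counts (adjusted p = 0.243). The entry of exons 7 to 9 had 59.5, 63.6 and 42.8 CPM in PP, 65.2, 83.6 and 107.9 in DP, and 231.8, 64.3 and 92.9 in N. N replicate 1 stood far above the other N libraries, which lay within the range of DP or just below it. The log2 FC from PP to N was 1.22 (SE 0.43, adjusted p = 0.0487), and without PP replicate 3 and N replicate 1 it was 0.37 (adjusted p = 0.180 by edgeR).

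The exon 2 circle of Nfix, in contrast, was highest in PP replicate 3. It had 46.0, 41.2 and 155.7 CPM in PP, 78.6, 75.6 and 79.5 in DP, and 137.8, 69.6 and 102.7 in N. PP replicate 3 exceeded every DP and N library, while the other PP replicates lay below all of them. With all libraries its log2 FC was -0.04 from PP to DP (SE 0.46, adjusted p = 0.987) and 0.36 from PP to N (SE 0.46, adjusted p = 0.616). Without PP replicate 3 and N replicate 1 it was 0.86 from PP to DP (SE 0.19, adjusted p = 0.00142 by edgeR) and 1.01 from PP to N (SE 0.20, adjusted p = 0.000131). In the same library the exon 2 circles of Nfia and Nfib, with 18 and 19 counts, were at their lowest, and that of Nfic at its highest, so that Nfix made up 85.2% of the summed CPM of the 4 exon 2 circles, against 35.9 and 40.4% in the other PP replicates and 38.4 to 65.6% in DP and N. The cause of the difference between the PP libraries was not tested.

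**Figure D3:**
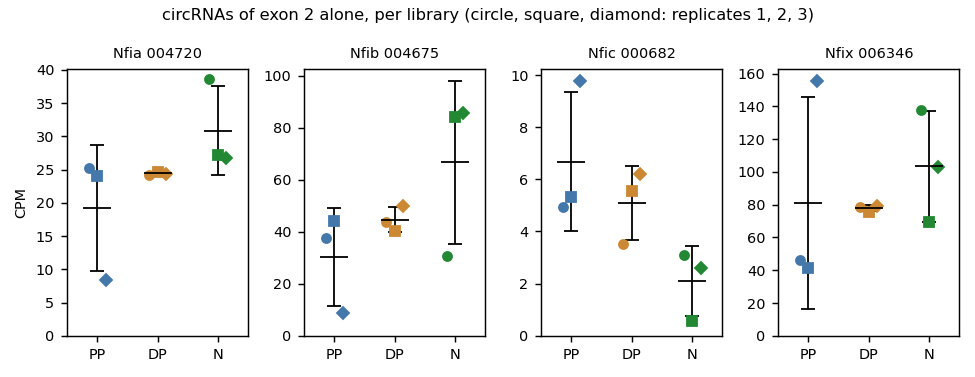
CPM of the circRNAs of exon 2 alone in each library, by population, with the mean and SD (n = 3). The DP libraries lie close together for Nfia and Nfix, PP replicate 3 (diamond) stands apart in all 4 genes, and the N libraries of Nfic lie below all others.

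The entry of exons 2 to 7 of Nfix, whose reads are those of exon 2 and of exons 3 to 7, followed both. It had 93.8, 92.7 and 212.4 CPM in PP, 151.3, 163.1 and 174.0 in DP, and 351.9, 151.0 and 214.8 in N. Its log2 FC from PP to N was 0.85 (SE 0.40, adjusted p = 0.134 by edgeR). The 78.7-kb entry had 275.8, 304.0 and 297.5 CPM in PP, 266.3, 316.7 and 457.4 in DP, and 623.1, 236.5 and 355.9 in N. Its populations overlapped throughout, and its log2 FC from PP to N was 0.47 (SE 0.37, adjusted p = 0.390). Reads of this entry that lie outside exons 2 to 7 made up 54.7% ± 22.7 of it for PP, 51.2% ± 9.68 for DP and 39.8% ± 3.69 for N (SD, n = 3). Per kilobase, exon 2 had 152 ± 122 CPM in PP, 146 ± 3.81 in DP and 194 ± 64.0 in N. Exons 3 to 7 with their introns had 8.94 ± 0.512, 14.9 ± 1.94 and 24.1 ± 11.8 CPM per kilobase in the same order. The remaining 71846 bases of the entry, nearly all intron, had 2.22 ± 0.920, 2.56 ± 1.23 and 2.31 ± 1.33 CPM per kilobase. In every library the level per kilobase of exon 2 was far above that of the rest of the entry. The gene G430095P16Rik lies on the other strand within the span, and whether reads were counted by strand is not given in the sources used here.

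**Figure D4:**
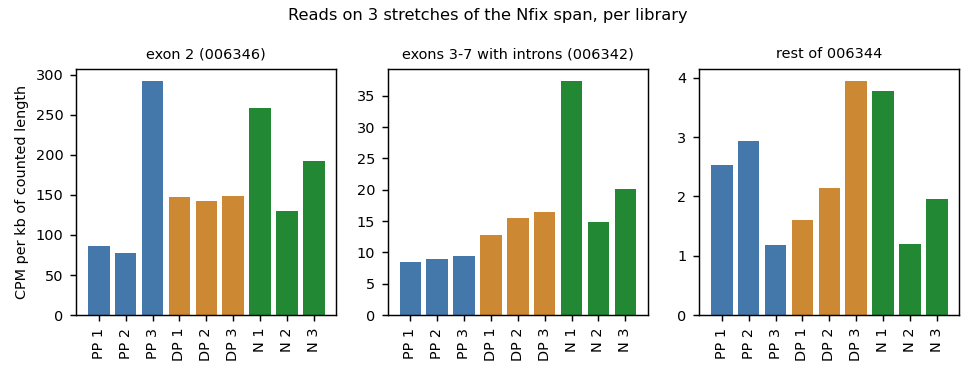
CPM per kilobase of counted length in each library for exon 2, for exons 3 to 7 with their introns, and for the rest of the 78.7-kb Nfix entry; the scales of the panels differ. For exons 3 to 7 all DP and N libraries lie above all PP libraries, PP replicate 3 is highest for exon 2, and the rest of the entry stays below 4 CPM per kilobase.

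The Nfib circles of exons 2 to 6 were highest in N replicates 2 and 3. The exon 2 circle had 37.7, 44.3 and 8.83 CPM in PP, 43.7, 40.3 and 50.1 in DP, and 30.6, 84.0 and 85.6 in N. Both shallow libraries lay below their replicates, and the groups overlapped. Its log2 FC from PP to N was 1.13 (SE 0.49, adjusted p = 0.108), and without the 2 shallow libraries it was 1.06 (SE 0.19, adjusted p = 2.75e-05 by edgeR). The circle of exons 3 to 6 had 17.4, 19.6 and 12.1 CPM in PP, 22.4, 19.9 and 21.5 in DP, and 15.1, 47.9 and 41.3 in N. The circle of exons 4 to 6 had 16.4, 18.0 and 11.6 CPM in PP, 19.9, 18.1 and 18.8 in DP, and 15.1, 42.2 and 36.4 in N. In the circle of exons 5 to 6 the values were 12.7, 14.7 and 10.2 CPM in PP, 16.99, 15.8 and 15.8 in DP, and 13.3, 35.4 and 29.7 in N. For these nested circles N replicates 2 and 3 were above all other libraries, and N replicate 1 lay among those of PP. The log2 FCs from PP to N were 1.09 (SE 0.39, adjusted p = 0.0481), 1.03 (SE 0.37, adjusted p = 0.0482) and 1.06 (SE 0.35, adjusted p = 0.0361) in this order. They held in 1, 1 and 2 of the 9 fits that each left out a library. Without the 2 shallow libraries they were 1.29, 1.21 and 1.26, with adjusted p between 1.67e-06 and 4.49e-06 by edgeR.

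In Nfia 2 circles rose from PP to N, with N replicate 1 above its replicates. The circle of exons 5 to 6 had 9.35, 9.38 and 6.51 CPM in PP, 12.1, 8.76 and 11.2 in DP, and 23.0, 16.8 and 15.2 in N. All N libraries lay above all others. Its log2 FC from PP to N was 1.08 (SE 0.31, adjusted p = 0.0168 by edgeR), 0.79 without the 2 shallow libraries (adjusted p = 0.00454). The call held with each library left out and was lost with total counts (adjusted p = 0.534), with at least 10 counts in every library and with only the 2 populations in the fit. The circle of exons 3 to 7, which contains these exons, had 16.4, 18.0 and 12.1 CPM in PP, 22.7, 18.0 and 20.4 in DP, and 33.2, 27.9 and 26.8 in N. Its N libraries too lay above all others, with a log2 FC from PP to N of 0.90 (SE 0.29, adjusted p = 0.0316), which held in 2 of the 9 fits that left out a library. The circle of exons 7 to 9 had 15.3, 16.7 and 6.51 CPM in PP, 21.6, 13.9 and 18.6 in DP, and 23.5, 21.5 and 22.1 in N. It did not pass (log2 FC 0.76, SE 0.35, adjusted p = 0.125). The exon 2 circle of Nfia had 25.2, 24.1 and 8.37 CPM in PP, 24.2, 24.7 and 24.3 in DP, and 38.6, 27.2 and 26.8 in N. Its value was nearly the same in the 3 DP libraries and the other PP libraries, and the log2 FC from PP to N was 0.64 (SE 0.37, adjusted p = 0.226) and 0.16 without the 2 shallow libraries (SE 0.19, adjusted p = 0.548 by edgeR).

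The exon 2 circle of Nfic was the only tested member called lower in N. PP libraries had 4.93, 5.34 and 9.76 CPM, DP libraries 3.51, 5.55 and 6.21 CPM, and N libraries 3.10, 0.582 and 2.61 CPM. This corresponds to between 19 and 50 counts per library in PP and DP and to 7, 5 and 16 counts in N, and the N libraries lay below all others. The log2 FC was -1.80 from PP to N (SE 0.53, adjusted p = 0.0190 by edgeR), a 3.48-fold decrease, and -1.47 from DP to N (SE 0.51, adjusted p = 0.0576). Without N replicate 2, the library with the fewest counts of it, the log2 FC from PP to N was -1.17 (adjusted p = 0.0903). Without PP replicate 3 and N replicate 1 it was -1.80 from PP to N (adjusted p = 0.000979) and -1.79 from DP to N (adjusted p = 0.000273 by edgeR). The level of Nfic against that of its paralogs is described by the log2 ratio of its exon 2 circle to the sum of the others. This ratio was -4.32 ± 0.161 in PP, -4.89 ± 0.425 in DP and -6.90 ± 1.20 in N (SD, n = 3), a difference of -2.58 between N and PP with no overlap. The ratio restates the fall of Nfic and has no test of its own, since these circles were chosen with their values known. Nfic thus made up 4.34 to 5.34% of the summed exon 2 circles in PP, 2.34 to 3.88% in DP and 0.321 to 1.48% in N.

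Between DP and PP, the first step of neurogenesis, no member passed by edgeR, where 1.48% of all circRNAs were higher in DP and 0.386% lower. No member had an unadjusted p under 0.05, DESeq2 called 0 as well, and log2 FCs were between -0.33 (Nfic) and 0.74 (Nfix exons 3 to 7). The DP libraries were all above the PP libraries for 7 members, beside 10.9% of all circRNAs, and for none were they all below, beside 8.40%. Without PP replicate 3 and N replicate 1, 3 of 17 members were higher in DP, all of Nfix, beside 9.08% of all circRNAs tested then, and 0 were lower, beside 4.90%. They were exon 2, exons 2 to 7 (log2 FC 0.83, SE 0.19, adjusted p = 0.00256) and exons 3 to 7 (log2 FC 0.80, SE 0.19, adjusted p = 0.00307 by edgeR), which share reads.

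From DP to N, 16 of 17 members again had a log2 FC above 0 and none passed in either direction by edgeR or in DESeq2, beside 9.03% of all circRNAs that were higher in N and 9.80% that were lower. With an unadjusted p under 0.05 there were 1 higher and 1 lower member, Nfia exons 5 to 6 (log2 FC 0.76, SE 0.29, adjusted p = 0.0954 by edgeR) and Nfic. Scaled to total counts, 7 members were above 0, with a median of all circRNAs of -0.37, so the direction in this step depends on the scaling. The N libraries were all above the DP libraries for 3 members, beside 17.7% of all circRNAs, and all below for Nfic, beside 21.2%. From PP to N the corresponding counts were 6 above and 1 below, beside 17.4 and 19.1%. Without the 2 shallow libraries, 6 members of Nfia and Nfib were higher in N than in DP, beside 16.6% of all circRNAs, and Nfic was lower, beside 17.3%. The largest of these rises were those of Nfib exons 3 to 6 (log2 FC 1.07, SE 0.17, adjusted p = 2.66e-06), exons 4 to 6, exons 5 to 6 and exon 2 (log2 FC 0.92, SE 0.17, adjusted p = 3.47e-05 by edgeR), and no Nfix member was among them. From PP to N, 9 members were then higher and Nfic lower, beside 21.6 and 20.6% of all circRNAs. These comparisons share the libraries of each population and are not independent.

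**Figure D5:**
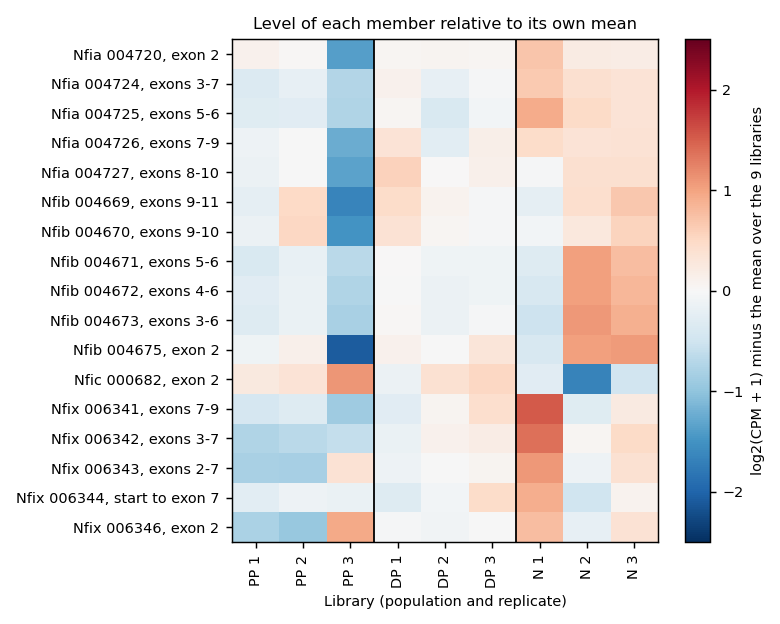
Level of each tested member in each library as log2(CPM + 1) minus its mean over the 9 libraries. The Nfib circles of exons 2 to 6 are high in N replicates 2 and 3, the Nfix entries in N replicate 1, and Nfic is low in N, while PP replicate 3 is low for most members and high for the exon 2 circles of Nfic and Nfix.

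Summed over the circRNAs of each gene, without the 78.7-kb entry, and fitted over the 2413 genes with enough counts, only Nfic passed. From PP to N its log2 FC was -1.80 (SE 0.53, adjusted p = 0.0218), where 15.8% of genes were lower in N. The sums of Nfia (log2 FC 0.80, SE 0.30, adjusted p = 0.0636), Nfib (0.98, SE 0.40, adjusted p = 0.0871) and Nfix (0.91, SE 0.37, adjusted p = 0.0855) did not pass by edgeR, where 14.8% of genes were higher. In edgeR's test none passed from PP to DP, where none had an unadjusted p under 0.05, beside 1.62% of genes higher and 0.539% lower, or from DP to N, where Nfic alone had an unadjusted p under 0.05, beside 9.24% higher and 10.6% lower. Without PP replicate 3 and N replicate 1 all 4 sums passed from PP to N, with log2 FCs of 0.49 (Nfia), 1.01 (Nfib) and 0.91 (Nfix) and the fall of Nfic. The share of all genes that passed in that fit is not given here. Of all circRNAs tested then, 21.6% were higher in N than in PP and 20.6% lower, more than with all libraries. Whether the circRNAs of a gene changed differently from one another was tested with diffSpliceDGE over 3066 circRNAs. Of the 16 members tested, which leaves out Nfic with its single circRNA, none passed in any comparison, beside 0.0%, 0.0326% and 0.0652% of circRNAs from PP to DP, DP to N and PP to N, and none had an unadjusted p under 0.05. Their log2 FCs differed from that of the gene as a whole by between -0.54 and 0.69 from PP to N. The 78.7-kb entry, left out of the sums, was included in this test. A read on nested entries was counted in each, which narrows the differences between them in advance. The absence of calls thus does not show that the circRNAs of a gene changed alike.

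Of 30 genes tied by earlier work to NFI function in neural progenitors and glia, 9 had circRNAs, 28 in all. Of these circRNAs 12 were of Ezh2, which methylates histones, and 7 of the transcription factor Sox5, whereas the Notch effectors Hes1, Hes5 and Hey1 and the glial genes Gfap, Slc1a3 and Aqp4 had none. By edgeR 9 of the 28 were higher and 6 lower in N than in PP, with a median log2 FC of -0.58. The circRNAs of the adhesion genes Cntn2 (from 1.03 to 114 CPM in the mean, adjusted p = 1.06e-06) and Ncam1 (from 1.79 to 15.2 CPM, adjusted p = 4.23e-05) were higher, and those of the Notch receptors Notch1 (from 41.3 to 0.318 CPM) and Notch2 (from 29.8 to 0.730 CPM) lower (adjusted p = 1.06e-06 for each). Among 85 tested circRNAs of other transcription factors of the developing cortex, 21 were higher and 28 lower in N than in PP, with a median log2 FC of -0.30. Those with the smallest adjusted p are given. The circRNA of Myt1l, a neuronal factor, rose from 0.659 to 45.7 CPM (adjusted p = 1.06e-06), and those of Gli3, Tead2 and Prdm16, which act in progenitors, fell from 28.8 to 1.81, from 24.1 to 1.90 and from 14.9 to 1.003 CPM (adjusted p = 6.67e-06, 7.36e-06 and 1.61e-05 by edgeR).

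Genes whose summed circRNAs followed each NFI gene most closely were sought among 1204 genes of at least median level, by Pearson's r of log2 CPM over the 9 libraries. For Nfix these were Fxr2 (r = 0.996), Lsm14b (0.987) and Zfp609 (0.985), for Nfib Ralgps2 (0.972), Clip1 (0.952) and Wdr47 (0.934), for Nfia Kdm5b (0.965), Spna2 (0.964) and Smarca4 (0.963), and for Nfic Dnmt3a (0.961), Brpf3 (0.953) and Ptpru (0.949). These values describe the same 9 libraries, share their depth and include PP replicate 3 and N replicate 1, and the highest of 1204 values is high by choice.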

How the data were processed

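Per the labels and the study's methods, the authors sequenced RNase R-treated total RNA of PP, DP and N (3 libraries each) as 150-base single-end, strand-specific reads (NEBNext Ultra Directional, Illumina HiSeq), aligned them to mm9 with gsnap, predicted circRNAs from unaligned reads with find_circ, and counted reads on expressed features with featureCounts (Subread 1.6.0 in the submitters' processing notes), summed per circRNA. The deposited values are whole-number counts, not normalized, with the counted length. How reads on several entries were counted is not given in the sources used here. The authors tested with DESeq2 by FC alone.

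Here counts were filtered (filterByExpr), scaled by TMM and tested in R 4.3.3 with edgeR 4.0.16 (two-sided quasi-likelihood test, Benjamini-Hochberg adjustment over all 4406 circRNAs or 2413 genes tested, threshold 0.05) in 1 model over the 9 libraries, and within genes with diffSpliceDGE. Ratios between exon 2 circles are given without a test, since an exact permutation test of 3 libraries against 3 cannot go below p = 0.1. Exons and sequences came from GENCODE vM1 and the genome of the same build. Alternatives were DESeq2 1.42.0, RLE or total counts, 2 other filters, a replicate block and fits of 2 populations. Others left out the 27 entries that dominate the totals, single libraries or the 2 shallowest. A further alternative, sums over entries that do not overlap, was chosen after seeing the data. The 2 shallowest were left out together partly because they stood apart from their replicates for several members. On simulated counts for 5281 circRNAs, 96% of 200 changed circRNAs were recovered between N and DP with 3.03% false calls. On simulated sums for 2759 genes, 97.5% of 200 were recovered with 1.02% false calls. The size of the changes that were set is not given here. Recovery at the size and the counts seen for the members was not tested.

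Depth was 2962787 to 8015311 counts per library, and the biological coefficient of variation was 0.296. Replicates were checked by chi-square and differed by at least 9.10 per degree of freedom, so none was a copy. The members, gene lists and tests were chosen with earlier results of these data known. Named with a value in every library were the longest Nfix entry, the Nfic circRNA, the 3 circRNAs of highest mean CPM in each other gene and the members called; the exon 2 circle of Nfix was added after its values were seen. Of each list up to 4 circRNAs with the smallest adjusted p were eligible, 1 per gene.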

Additional observations from a re-analysis of the deposited data

How the results depend on the processing

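Between N and PP the count of members higher in N, 7 in edgeR's test, was 7 with DESeq2, with RLE scaling and without a filter. The count was 6 without the 27 entries that dominate the totals and 9 without PP replicate 3 and N replicate 1 together. It was 0 with total counts, 1 with at least 10 counts in every library, 1 with only the 2 populations in the fit and 2 with the replicate block, and between 2 and 7 with each library left out. Calls over all circRNAs, in either direction, moved too. They were 1235 of 4406 in the main test, 649 of 4406 with total counts and 1988 of 4714 without the 2 shallow libraries. For most other settings the share of all circRNAs called is not given here, so the member counts cannot be set against it. The 1 member lower in N was 0 with at least 10 counts in every library, a filter that removes it, and between 0 and 1 with a library left out. From DP to N, members higher were 6 without the 2 shallow libraries together and between 0 and 3 with a library left out. Members lower were 1 with total counts, without a filter, with only the 2 populations and without the 2 shallow libraries together, and between 0 and 1 with a library left out. From PP to DP, 3 were higher without the 2 shallow libraries together. Of the gene sums, total counts turned the log2 FC from DP to N to -0.19 for Nfia and -0.24 for Nfix, neither of which was called. That of Nfic from PP to DP became 0.020 without the 2 shallow libraries together and ranged from -0.47 to 0.036 with a library left out, the positive value being that without PP replicate 3. For Nfix exon 2 the log2 FC from PP to DP became 0.86 without the 2 shallow libraries. From DP to N the Nfic sum passed with log2 FCs of -2.16 (total counts), -1.53 (no filter), -1.54 (only the 2 populations), -1.78 (without the 2 shallow libraries) and -1.52 (entries that do not overlap), and ranged from -1.96 to -0.90 with a library left out. From PP to N it did not pass with only the 2 populations (-1.76), and ranged from -2.26 to -1.18, with no call without N replicate 2. The sums of Nfia (0.82 with DESeq2 and 0.49 without the 2 shallow libraries), Nfib (1.01) and Nfix (0.91) passed from PP to N. That of Nfib passed from DP to N (0.86), and that of Nfix from PP to DP (0.78), each without the 2 shallow libraries. With a library left out, Nfib ranged from 0.69 to 1.31 and Nfix from 0.52 to 1.33 from PP to N, Nfib passing without N replicate 1 and Nfix without PP replicate 3 or N replicate 2. The causes were not tested. Libraries with the same replicate number did not deviate together from their group means (mean correlation -0.0329, against 0.024 for other numbers). For 3 of 9 libraries the mean correlation was higher with those of their own number than with those of other numbers. The replicate block changed no call other than those between N and PP. Depth limits Nfic, with 5 to 50 counts per library, and left the intronic Nfia entry, with 0 to 19, untested.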
